A study of Gallus gallus with 12 samples.

Results

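Cadherins, protocadherins and integrins are the membrane proteins by which cells hold on to each other and to their matrix, and their transcripts were followed here in chicken embryo skin that forms scales or feathers. The members are the rows of the deposited expression table whose gene symbol begins with CDH and a number, with PCDH, with ITGA, or with ITGB and a digit, in upper or lower case, leaving out the epithelial cadherin CDH1. The rule found 42 rows of 12297, which carry 41 symbols of 12133, since ITGA1 is listed under 2 transcripts. They are 14 cadherins, 11 protocadherins and 17 integrin rows, and all 42 passed the filter on low values.

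The tissue came from untreated White Leghorn embryos, from fertilized eggs, as 2 libraries in each of 6 groups. Scale-forming skin came from the tarsometatarsus, the lower leg, at embryonic day 11 (E11, Hamburger and Hamilton stage 37) and at E9 (stage 35). Feather-forming skin came from the wing, the thigh and the back at E9 (stage 35) and from the back at E7 (stage 31). Titles of the samples speak of dermis and their tissue labels of skin, so the word skin is used here. All scale skin was tarsometatarsal, so appendage type and body site cannot be told apart. Whether the replicates are separate embryos or pools is not stated, and the p-values may thus reflect no more than technical spread.

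Classical cadherins bind the same cadherin on the next cell through calcium-dependent extracellular repeats and are tied to actin inside the cell by catenins; type I and type II cadherins differ in how their outermost repeats bind. Protocadherins carry related repeats without the catenin-binding tail and are known chiefly from cell sorting and wiring in the nervous system. Integrins are pairs of an alpha and a beta chain that bind collagens, laminins, fibronectin or tenascins, with the alpha chain setting much of the choice of ligand. In bird skin these families take part in the packing of dermal cells under an appendage and in the hold of the epidermis on its basement membrane.

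Depth ran between 13164611 and 20641981 reads per library over the listed rows. In CPM, read counts divided by a scaled library size, 1 read was worth 0.0475 to 0.0736 CPM, and levels are not compared between genes because CPM is not scaled to transcript length. Thigh E9 replicate 2 stood apart: 12.9% of its signal was mitochondrial, where the remaining 11 libraries had 3.24% to 4.75%. The median difference between replicates over the members was 0.558 on the log2 scale in the thigh, against 0.124 to 0.345 in the other 5 groups. Both dorsal E9 libraries had 0.41 CPM of the W-linked genes HINTW and SPINW together, which only females carry, against 54.3 to 183.9 CPM in the other 10, so dorsal E9 differs from every other group in that as well. Members were tested in limma on log2(CPM + 1) with all 12277 tested rows, calls are at a Benjamini-Hochberg adjusted p under 0.05, and this scale understates the change of low genes.

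The 6 groups differed in 31 of the 42 members by the test for any difference among them (10 cadherins, 8 protocadherins and 13 integrin rows), or 73.8%, against 44.6% of all rows. Without both dorsal E9 libraries 27 members were called, and without thigh E9 replicate 2 there were 33. Dorsal E9 had the highest mean of the 6 groups for 14 members and scale E11 for 9. Scale E9 had the lowest mean for 13 members, wing E9 for 10 and thigh E9 for 9. These counts include members that were not called and near ties, such as PCDH9 at 9.345 CPM in dorsal E9 and 9.25 in thigh E9. Shares of all rows by highest or lowest group, or in the fits with libraries left out, are not given. The counts are thus not read as particular to the members. The ratio of the highest to the lowest group mean reached 7.66 for PCDH9, 7.57 for CDH13, 6.81 for ITGB3 and 6.78 for ITGA11, and was 1.18 for CDH11.

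**Figure D1:**
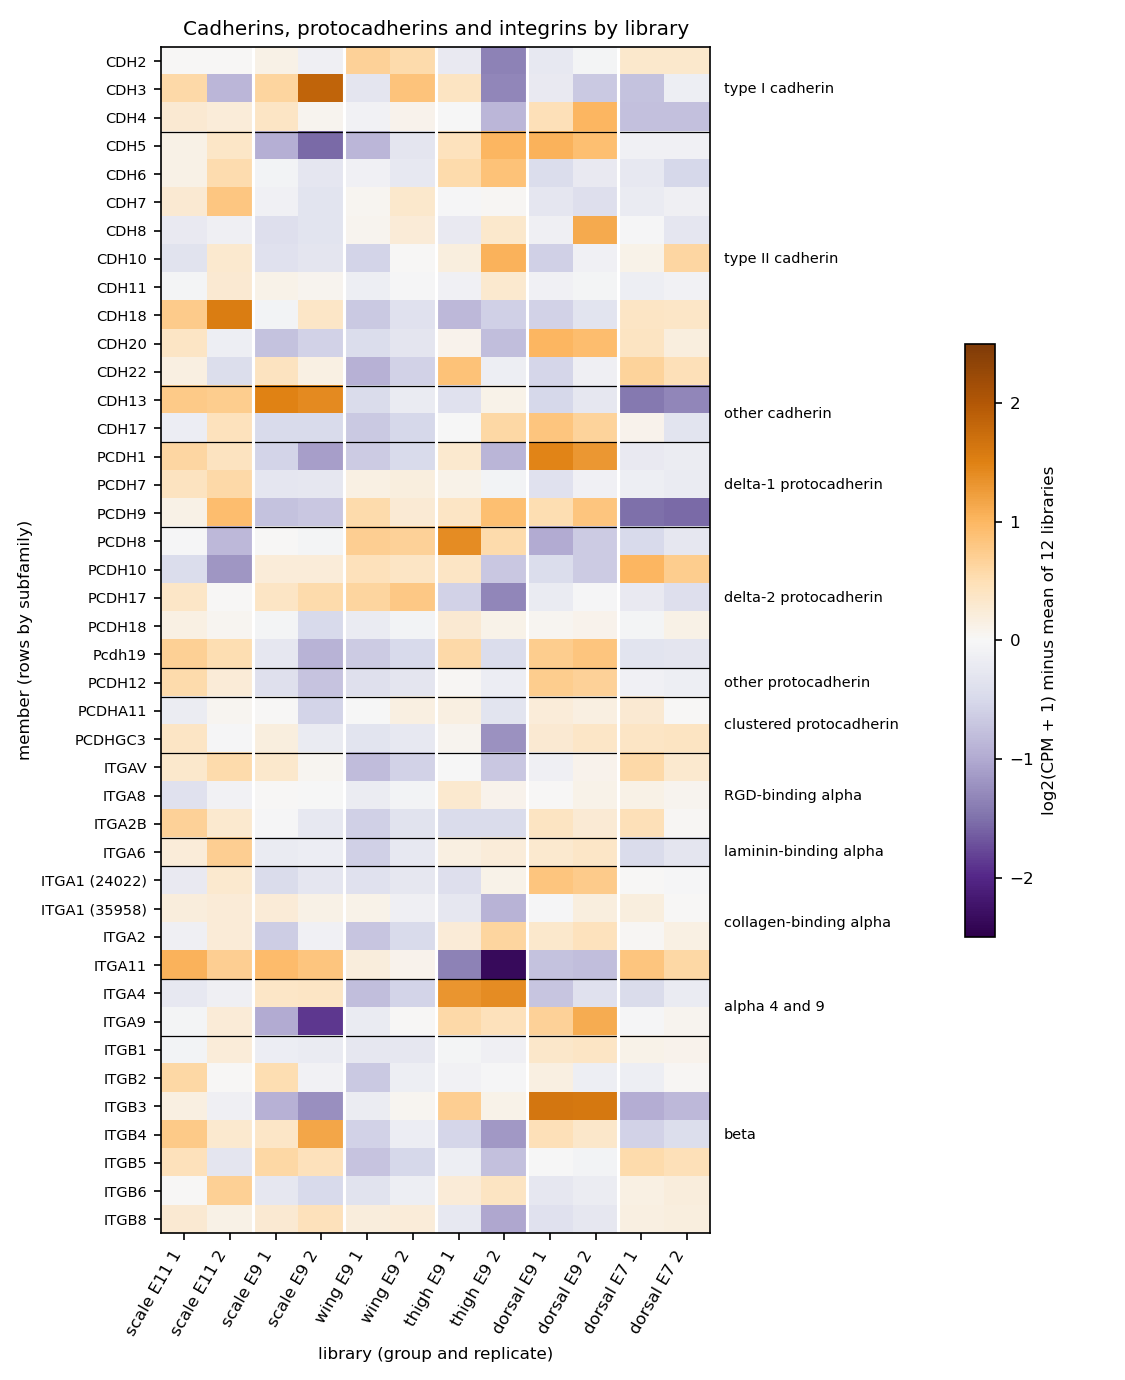
Heat map of the 42 members (rows, by subfamily) in the 12 libraries (columns, by group and replicate), coloured by log2(CPM + 1) minus the member's mean over all libraries; numbers after ITGA1 are the last 5 digits of the transcript identifier. CDH13 was high in both scale E9 libraries, ITGB3 and PCDH1 were high in both dorsal E9 libraries, and the CDH11 row is nearly even.

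The scale E9 libraries were compared with the average over wing, thigh and dorsal skin of that age. Of the members 13 were called, or 31%, against 16.6% of all rows; 6 were higher in scale skin, as were 7.77% of all rows, and 7 were lower, as were 8.86%. Higher in scale skin were CDH13, a cadherin held to the membrane by a lipid anchor, the collagen receptor chain ITGA11, the beta chains ITGB4, ITGB5 and ITGB8, and CDH18. Lower were ITGA9, ITGB3, the endothelial cadherin CDH5, the protocadherins PCDH9, PCDH1 and PCDH12, and CDH20. The median log2 fold change was -0.18 over the members and -0.01 over all rows. Fewer members were called without scale E9 replicate 2, more without thigh E9 replicate 1, and 9 without both dorsal E9 libraries. Shares of all rows called in those fits are not given, so these counts are not read as particular to the members.

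In dorsal E9 against dorsal E7, 16 members were called, or 38.1%, against 20.1% of all rows; 13 were higher, as were 12.2% of all rows, and 3 lower, as were 7.96%. ITGB3 and PCDH9 had the largest rises, followed by PCDH1 and CDH4, while ITGA11, PCDH10 and CDH18 fell. The median log2 fold change of the members was 0.05, against 0.03 over all rows. Fewer members were called with any of the 4 libraries left out. Shares of all rows called in those fits are not given, so this drop is not read as particular to the members.

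In scale E11 against scale E9, 10 members were called, or 23.8%, against 5.83% of all rows; 9 were higher, as were 4.37% of all rows, and 1 lower, as were 1.46%. ITGA9, CDH5 and PCDH1 had the largest rises and CDH13 was the member that fell. The members' median log2 fold change was 0.26, against 0.01 over all rows. This comparison leaned on each library: the count was 6 without scale E9 replicate 1, 1 without scale E9 replicate 2, 2 without scale E11 replicate 2 and 7 without scale E11 replicate 1. Shares of all rows called in those fits are not given, so the lower counts are not read as particular to the members. Under quantile normalization the members split into 6 higher and 2 lower, and of all rows called 64.55% were higher, against 75% in the fit reported here.

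**Figure D2:**
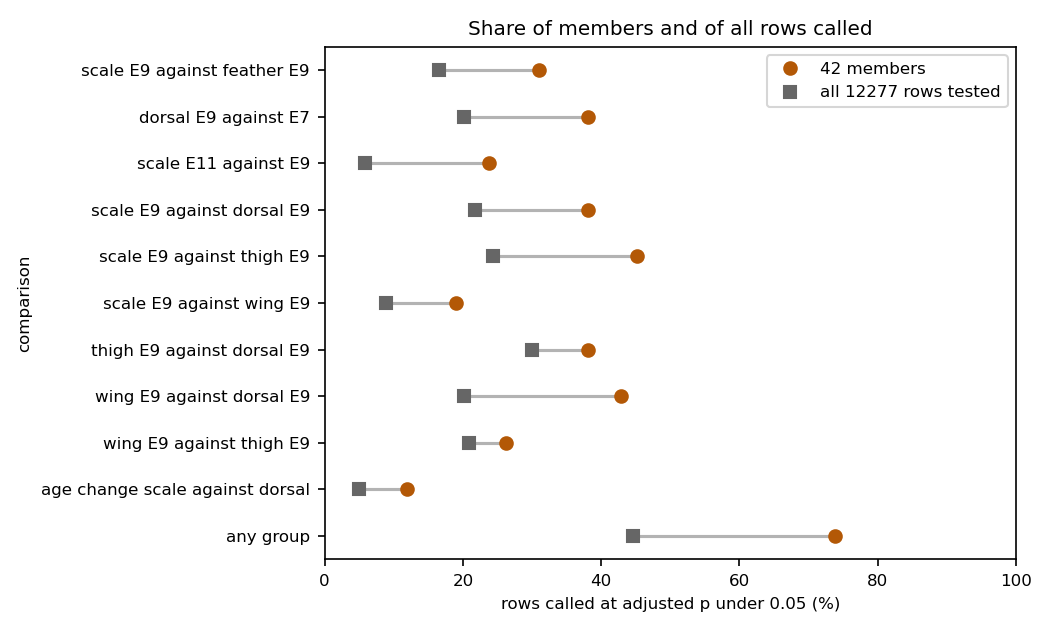
Share of the 42 members (circles) and of all 12277 rows tested (squares) called at an adjusted p under 0.05, in percent, for each of the 11 tests (rows). The circles lie to the right of the squares in all 11; the shares are described only, with no test of the difference.

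The age comparisons in back and scale skin share no library. Of the 13 members that rose in dorsal skin and the 9 that rose in scale skin, 7 were the same, which is 53.8% of the dorsal and 77.8% of the scale list: CDH5, PCDH1, PCDH9, PCDH12, Pcdh19, ITGA9 and ITGB3. Over all rows, 366 rose in both, which is 24.5% of the 1494 in dorsal and 68.2% of the 537 in scale skin. None of the 3 members that fell with age in dorsal skin was the 1 that fell in scale skin. Among all rows 97 fell in both, which is 9.93% of the 977 in dorsal and 54.2% of the 179 in scale skin. With 1 member on the scale list, the lack of overlap says little. The comparison of scale with feather skin uses the scale E9 and dorsal E9 libraries too, so its values for these genes are not independent of those with age.

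**Figure D3:**
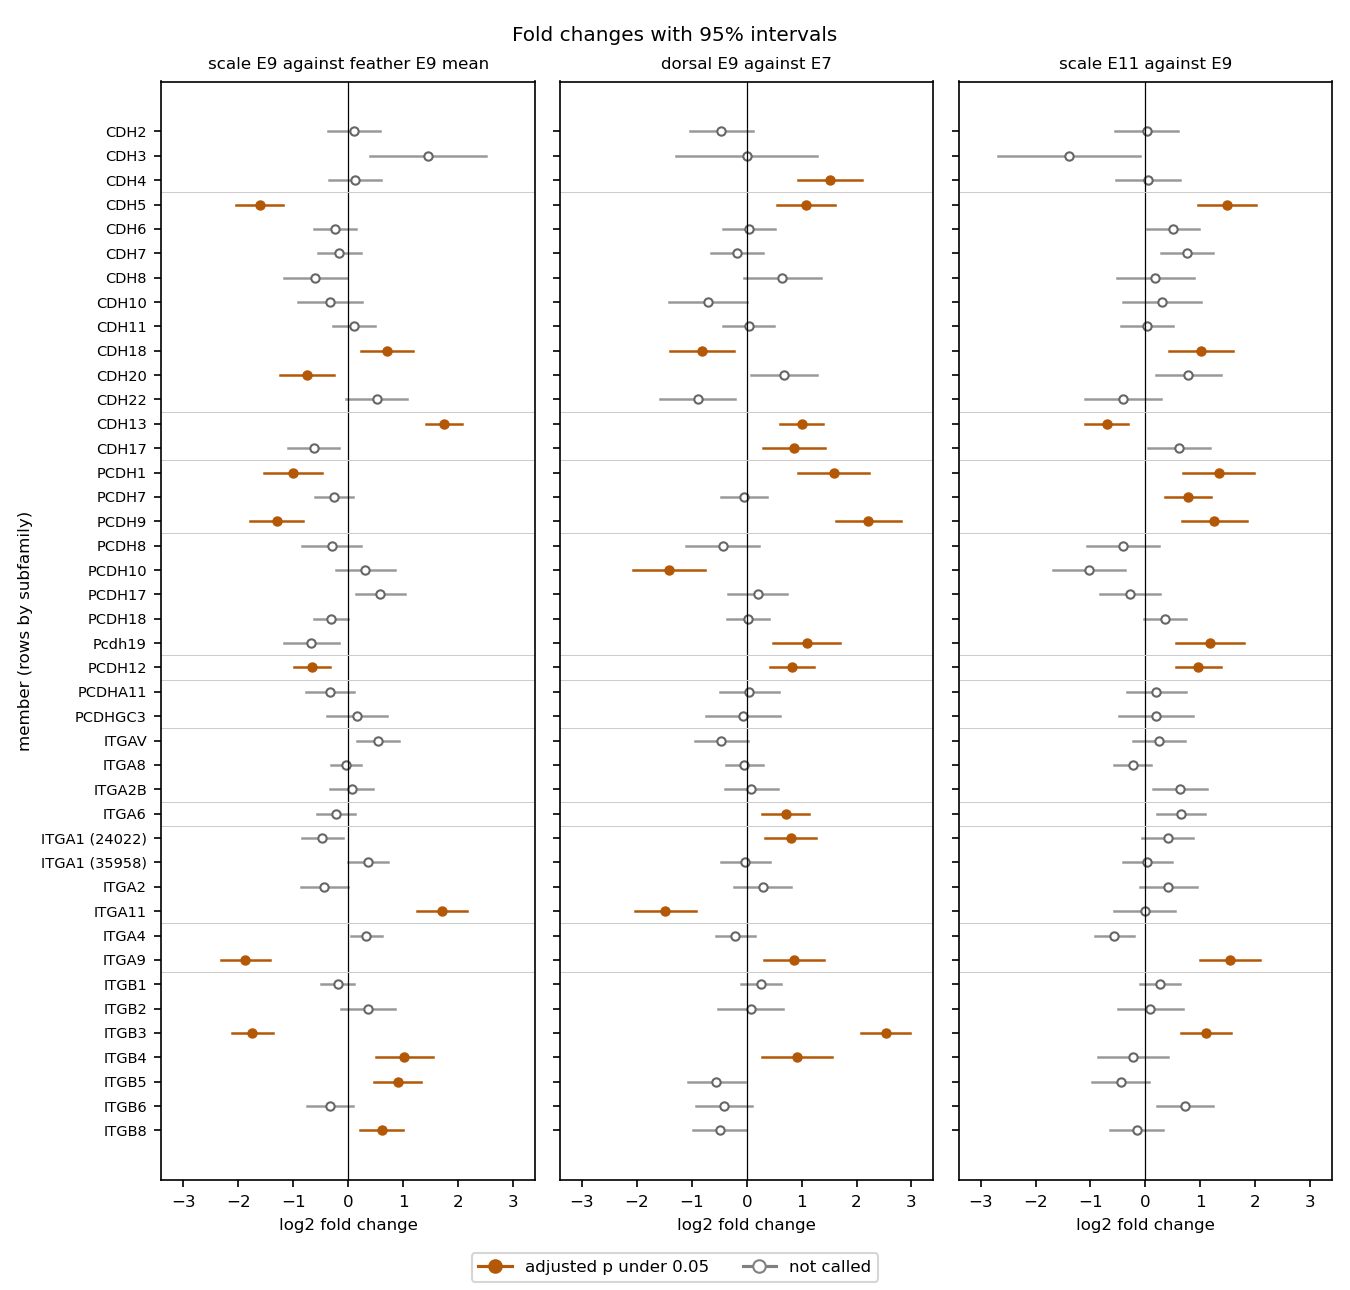
Log2 fold changes (points) with 95% intervals (lines) of the 42 members, in scale E9 against the mean of the feather E9 groups, dorsal E9 against dorsal E7 and scale E11 against scale E9; filled points had an adjusted p under 0.05. ITGA9, ITGB3, CDH5, PCDH1, PCDH9 and PCDH12 lie left of 0 in the first panel and right of it in the other panels.

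Among the type I cadherins, CDH4 (R-cadherin, known from retina; ENSGALT00000008180.4) had 17.30 and 16.57 CPM in scale E11, 18.42 and 14.65 in scale E9, 13.03 and 14.82 in wing E9, 13.94 and 7.25 in thigh E9, 19.82 and 28.90 in dorsal E9, and 7.80 and 7.73 in dorsal E7. Both dorsal E9 libraries lay above all others and both dorsal E7 libraries near the bottom, with only thigh E9 replicate 2 lower. CDH4 rose with age in dorsal skin (log2 fold change 1.51 ± 0.27, SE, adjusted p 0.0014) and not detectably in scale skin (0.04, 95% interval -0.54 to 0.62). CDH2 (N-cadherin, of mesenchyme and nerve) was called in none of the main comparisons and averaged 114.6 ± 0.11 CPM in scale E11, 113.2 ± 13.7 in scale E9, 174.1 ± 9.9 in wing E9, 69.8 ± 37.3 in thigh E9, 102.4 ± 9.79 in dorsal E9 and 140.9 ± 0.09 in dorsal E7 (SD, n = 2, as for every mean below). The thigh libraries had 96.2 and 43.5 CPM of CDH2, so the group's mean rests on libraries that lay apart.

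CDH3 (P-cadherin, of basal keratinocytes) had 14.9 and 35.6 CPM in scale E9, against 3.07 to 17.4 CPM in the 6 feather E9 libraries. The groups overlapped and the difference missed the threshold (log2 fold change 1.46 ± 0.49, adjusted p 0.0597). Keratinocyte markers moved with it in part. The 17 measured rows of that list summed to 258 and 642 CPM in scale E9, and the higher sum lay in the library with more CDH3. The sums were 104 to 292 CPM in wing E9, 227 to 290 CPM in thigh E9 and 148 to 162 CPM in dorsal E9. In dorsal E7 they were lower, at 63.4 to 83.6 CPM, while CDH3 averaged 6.635 ± 2.20 CPM there and 6.55 ± 1.64 in dorsal E9. CLDN4 and LAMB3 of that list were under 1 CPM in at least 6 libraries. The part of epidermis in the difference was not tested.

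CDH5 (VE-cadherin, the cadherin of endothelial junctions; ENSGALT00000008459.4) was the type II cadherin with the largest change in each of the 3 main comparisons. It had 278.7 and 330.6 CPM in scale E11, 133.0 and 87.0 in scale E9, 139.2 and 206.8 in wing E9, 348.5 and 513.5 in thigh E9, 530.5 and 483.3 in dorsal E9, and 237.9 and 239.4 in dorsal E7. Both scale E9 libraries lay below every other library. CDH5 was lower in scale E9 than in feather skin (-1.61 ± 0.20, adjusted p 9.3e-05). Against wing E9 alone neither CDH5 nor any other of the 9 type II cadherins was called. CDH5 rose with age in dorsal skin (1.08 ± 0.24, adjusted p 0.0064) and in scale skin (1.49 ± 0.24, adjusted p 0.0030). The rise lost its call without dorsal E9 replicate 1 in the back (adjusted p 0.060), and without scale E9 replicate 2 or scale E11 replicate 2 in scale skin (0.061 and 0.055).

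Other endothelial markers moved in part with CDH5. The 18 measured rows of that list, which does not hold CDH5, summed to 698 to 720 CPM in scale E11, 247 to 341 in scale E9, 351 to 417 in wing E9, 514 to 521 in thigh E9, 901 to 1176 in dorsal E9 and 497 to 508 in dorsal E7. Of them 13 were lower and 1 higher in scale E9 than in feather skin (8.86% and 7.77% of all rows). Against dorsal E9 alone 15 were lower and 1 higher (12.6% and 9.23% of all rows). Against wing E9 alone 5 were lower and 1 higher (4.13% and 4.77% of all rows). With age 12 were higher in dorsal skin and 13 in scale skin (12.2% and 4.37% of all rows). The thigh differed: 11 markers were lower and 0 higher there than in dorsal E9, against 16.5% and 13.5% of all rows. CDH5 averaged 431.0 ± 116.7 CPM in thigh E9, 506.9 ± 33.3 in dorsal E9 and 304.6 ± 36.7 in scale E11. VWF was under 1 CPM in at least 6 libraries. In bulk tissue fewer endothelial cells and less RNA per cell cannot be told apart.

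The other 8 type II cadherins changed less or stood low. CDH18 averaged 21.4 ± 8.59 CPM in scale E11, 9.81 ± 2.22 in scale E9, 5.82 ± 1.05 in wing E9, 4.88 ± 0.69 in thigh E9, 6.15 ± 0.89 in dorsal E9 and 11.5 ± 0.05 in dorsal E7. It was higher in scale E9 than in feather skin (0.70 ± 0.22, adjusted p 0.043), rose with age in scale skin (1.01 ± 0.27, adjusted p 0.043) and fell with age in dorsal skin (-0.81 ± 0.27, adjusted p 0.048). These CDH18 calls were lost in 8 of 22, 4 of 15 and 5 of 15 alternatives, with adjusted p up to 0.35, 0.38 and 0.25.

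CDH20 averaged 0.94 ± 0.16 CPM in scale E9, against 1.36 ± 0.15 in wing, 1.52 ± 1.05 in thigh and 4.995 ± 0.23 in dorsal E9. Its lower level in scale than in feather skin (-0.74 ± 0.23, adjusted p 0.040) was lost with the dorsal E9 libraries left out (adjusted p 0.46) and in 9 of the 20 other alternatives. The mesenchymal cadherin CDH11 did not pass in any comparison, at 1772 to 2412 CPM over all 12 libraries. Its 95% intervals were -0.28 to 0.49 in scale E9 against feather skin, -0.43 to 0.50 in dorsal and -0.44 to 0.50 in scale skin with age. CDH11 lies next to CDH5 in the RefSeq annotation of assembly GRCg7b, with 0 coding genes between them, and the ratio of the highest to the lowest group mean was 1.18 for CDH11 and 4.61 for CDH5.

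CDH6 averaged 20.8 ± 3.37 CPM in thigh E9, against 9.26 to 15.9 CPM in the other 5 group means. CDH7, CDH8, CDH10 and CDH22 had group means of at most 9.34 CPM, and they were not called in a main comparison. CDH10 lies near CDH6, with 2 coding genes between them in that annotation, and had its highest mean in thigh E9 as well, at 9.34 ± 4.24 CPM. That mean rests on replicate 2, at 12.3 CPM, while replicate 1 had 6.34 CPM, below the 8.81 CPM of dorsal E7 replicate 2.

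CDH13 (T-cadherin, which lacks the cytoplasmic tail of classical cadherins and is known from vessels and muscle; ENSGALT00000008808.4) was the member with the largest positive fold change in scale E9 against the average of the feather regions; against thigh E9 alone that of ITGA11 was larger. It had 73.0 and 71.3 CPM in scale E11, 121.7 and 115.0 in scale E9, 30.4 and 36.6 in wing E9, 32.9 and 45.3 in thigh E9, 29.4 and 35.2 in dorsal E9, and 15.0 and 16.3 in dorsal E7. The scale E9 libraries lay above all others, then the scale E11 libraries, and the dorsal E7 libraries below all others, with no overlap between these. CDH13 was higher in scale E9 than in feather skin (1.74 ± 0.15, adjusted p 5.4e-06), a call kept in all 22 alternatives. It rose with age in dorsal skin (0.998 ± 0.18, adjusted p 0.0017) and fell with age in scale skin (-0.71 ± 0.18, adjusted p 0.040), where the call was lost without any of the 4 libraries (adjusted p up to 0.21). The scale E9 libraries, with the most CDH13, had the lowest endothelial marker sums, at 247 and 341 CPM. In dorsal skin CDH13 and these sums both rose with age, the sums from 497 to 508 CPM at E7 to 901 to 1176 CPM at E9. The part of vessels in the CDH13 values was not tested.

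CDH17 (a cadherin of gut and, in rats, liver) had group means of 0.62 to 3.12 CPM. The level of CDH17 rose with age in dorsal skin (0.86 ± 0.26, adjusted p 0.035), a call lost in 7 of 14 alternatives (adjusted p up to 0.26).

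Of the 11 protocadherins 3 were lower in scale E9 than in feather skin, where 8.86% of all rows were lower. With age 4 were higher and 1 lower in dorsal skin (12.2% and 7.96% of all rows), and 5 were higher in scale skin (4.37% of all rows); these are a few genes each. PCDH1 (a delta-1 protocadherin, known from airway epithelium; ENSGALT00000041241.2) had 89.7 and 78.3 CPM in scale E11, 39.7 and 26.6 in scale E9, 36.7 and 41.7 in wing E9, 72.6 and 31.0 in thigh E9, 163.8 and 145.1 in dorsal E9, and 50.0 and 51.3 in dorsal E7. The dorsal E9 libraries were far above all others, and scale E9 overlapped with wing E9 and with thigh E9. PCDH1 rose with age in dorsal skin (1.59 ± 0.30, adjusted p 0.0021) and in scale skin (1.34 ± 0.30, adjusted p 0.019), and was lower in scale E9 than in feather skin (-1.001 ± 0.25, adjusted p 0.013). That last difference rested on the back: it was -0.40 without both dorsal E9 libraries (adjusted p 0.37), and it lost its call without scale E9 replicate 2 as well (0.21). The rise in scale skin was lost without scale E9 replicate 2 or either scale E11 library (adjusted p 0.11 to 0.22).

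PCDH9 (a delta-1 protocadherin best known from brain; ENSGALT00000027329.3) had 6.08 and 11.2 CPM in scale E11, 2.84 and 2.98 in scale E9, 8.43 and 6.75 in wing E9, 7.41 and 11.1 in thigh E9, 8.17 and 10.5 in dorsal E9, and 1.25 and 1.19 in dorsal E7. Dorsal E7 and scale E9 lay below all other libraries without overlap. PCDH9 rose with age in dorsal skin (2.21 ± 0.27, adjusted p 8.1e-05) and in scale skin (1.25 ± 0.27, adjusted p 0.016), and was lower in scale E9 than in feather skin (-1.30 ± 0.22, adjusted p 0.0012). The scale rise was lost without either scale E9 library or scale E11 replicate 2 (adjusted p 0.080 to 0.20) and under quantile normalization (0.052).

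PCDH7, the remaining delta-1 member, averaged 2.77 ± 0.28 CPM in scale E11 and 1.205 ± 0.04 in scale E9. PCDH7 rose with age in scale skin (0.77 ± 0.19, adjusted p 0.035), a call lost in 8 of 14 alternatives, edgeR and DESeq2 on recovered reads among them (0.057 and 0.12).

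PCDH12 (VE-cadherin-2, an endothelial protocadherin) averaged 33.1 ± 5.25 CPM in scale E11, 16.5 ± 3.06 in scale E9, 19.1 ± 0.74 in wing E9, 23.3 ± 2.33 in thigh E9, 40.5 ± 1.27 in dorsal E9 and 22.4 ± 0.39 in dorsal E7. It was lower in scale E9 than in feather skin (-0.65 ± 0.15, adjusted p 0.0096), a call lost with the dorsal E9 group left out (adjusted p 0.22) or scale E9 replicate 2 left out (0.17). PCDH12 rose with age in dorsal (0.83 ± 0.19, adjusted p 0.0064) and scale skin (0.97 ± 0.19, adjusted p 0.0076), where the endothelial marker sums were higher too. The dorsal call was lost without either dorsal E7 library or dorsal E9 replicate 1 (adjusted p 0.052 to 0.059), and the scale call without scale E9 replicate 2 (0.10) or scale E11 replicate 1 (0.071). PCDH12 and PCDH1 are near neighbours in the RefSeq annotation, with 1 coding gene between them, and their group means had the same order: dorsal E9, scale E11, thigh E9, dorsal E7, wing E9, scale E9. The endothelial marker sums of the groups fell in that order as well. Thigh E9 and dorsal E7 lay close together in each of these orders, and the PCDH1 mean in the thigh rests on libraries at 72.6 and 31.0 CPM. Single endothelial markers differed there. TEK averaged 36.1 CPM in thigh E9 and 57.2 in dorsal E7, and MMRN2 73.4 and 30.1. CDH5 did not follow the order, with 431.0 CPM in thigh E9 and 304.6 in scale E11. The part of vessels in the PCDH1 and PCDH12 values was not tested.

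**Figure D4:**
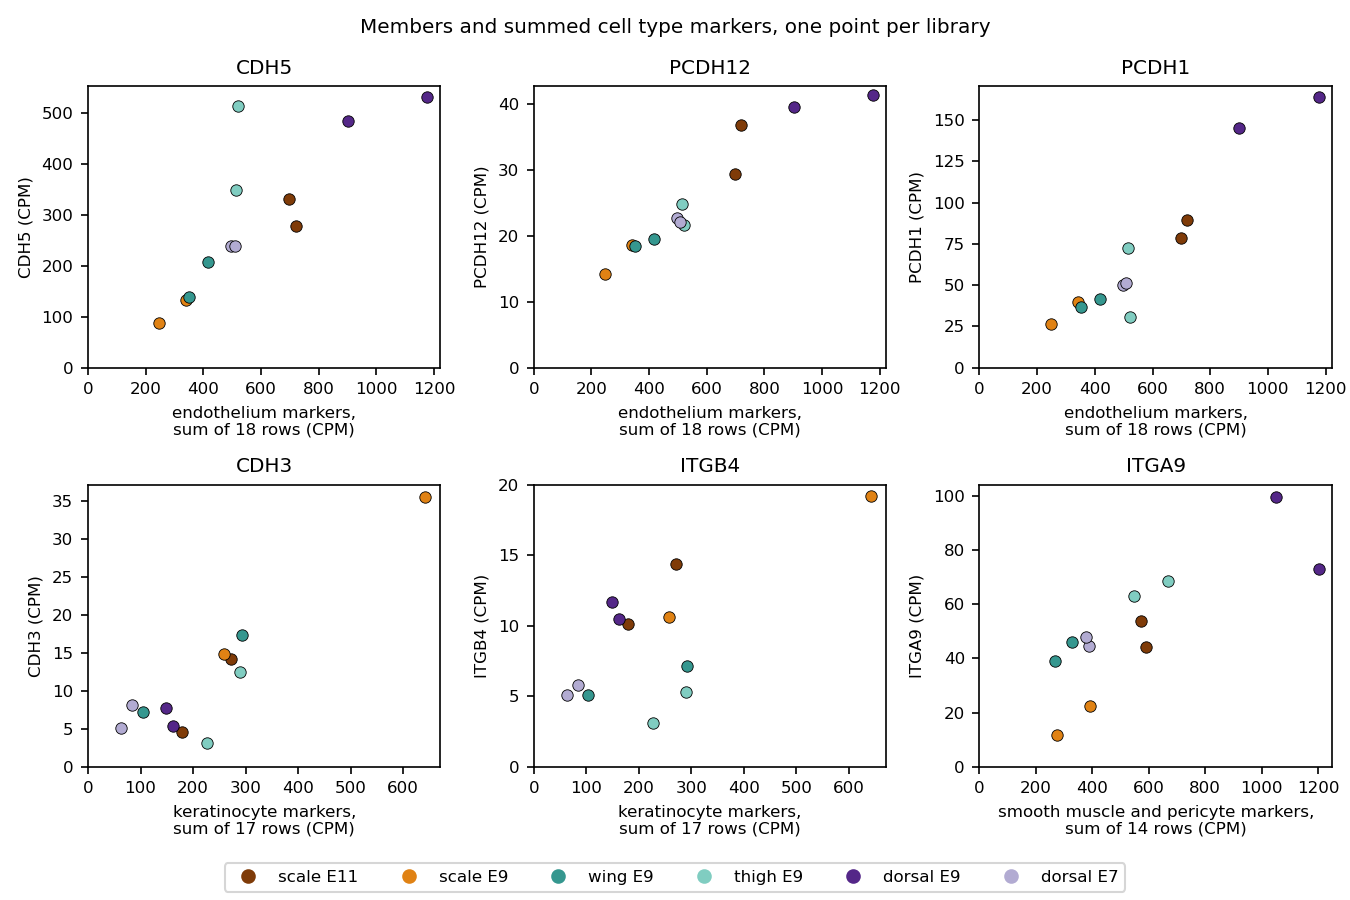
CPM of 6 members (vertical axes) against the summed CPM of a list of cell type markers (horizontal axes), 1 point per library, coloured by group. CDH5, PCDH12 and PCDH1 are set against endothelial markers, CDH3 and ITGB4 against keratinocyte markers, and ITGA9 against smooth muscle and pericyte markers; scale E9 replicate 2, at 642 CPM of keratinocyte markers, holds the highest CDH3 and ITGB4.

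Among the delta-2 protocadherins, PCDH10 fell with age in dorsal skin (-1.42 ± 0.30, adjusted p 0.0047), at 24.6 ± 2.59 CPM in E9 and 67.6 ± 9.28 in E7. It had 21.1 ± 7.86 CPM in scale E11 and 42.5 ± 0.16 in scale E9, a difference that missed the threshold (-1.02 ± 0.30, adjusted p 0.071). The dorsal call was lost without dorsal E7 replicate 1 (adjusted p 0.055). PCDH10 and PCDH18 are neighbours with 0 coding genes between them, yet PCDH18 was called in no comparison, at 365 to 498 CPM in its group means.

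Pcdh19 averaged 43.2 ± 3.80 CPM in scale E11, 19.0 ± 6.19 in scale E9, 49.1 ± 2.67 in dorsal E9 and 22.5 ± 0.22 in dorsal E7. Pcdh19 rose with age in dorsal skin (1.09 ± 0.28, adjusted p 0.015) and in scale skin (1.18 ± 0.28, adjusted p 0.027). The dorsal call was lost without any of its 4 libraries (adjusted p 0.068 to 0.089), and the scale call without scale E9 replicate 2 or either scale E11 library (0.14 to 0.28). PCDH8 and PCDH17 were called in none of the main comparisons. Of the clustered protocadherins, whose variable exons are joined to shared ones, PCDHA11 had group means of 1.18 to 1.94 CPM and PCDHGC3 of 310.7 to 553.8 CPM, and neither was called in a main comparison. Reads of shared exons cannot be told apart between such isoforms, so both are uncertain.

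ITGA9 (the alpha chain that binds tenascin-C and is needed for lymphatic valves in mice; ENSGALT00000019985.4) was the integrin with the largest deficit in scale E9 against the average of the feather regions; against dorsal E9 alone that of ITGB3 was larger. It had 44.2 and 54.0 CPM in scale E11, 22.5 and 11.6 in scale E9, 39.2 and 45.9 in wing E9, 68.8 and 63.2 in thigh E9, 73.2 and 99.7 in dorsal E9, and 44.8 and 48.0 in dorsal E7. Both scale E9 libraries lay below every other library. ITGA9 was lower in scale E9 than in feather skin (-1.87 ± 0.21, adjusted p 3.9e-05) in all 22 alternatives. It rose with age in scale skin (1.53 ± 0.25, adjusted p 0.0031), a call lost without scale E11 replicate 2 (0.057), and in dorsal skin (0.87 ± 0.25, adjusted p 0.027), a call lost without either dorsal E7 library or dorsal E9 replicate 2 (adjusted p 0.10 to 0.22).

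Smooth muscle and pericyte markers moved in part with ITGA9. The 14 measured rows summed to 573 to 589 CPM in scale E11, 275 to 390 in scale E9, 268 to 326 in wing E9, 548 to 668 in thigh E9, 1050 to 1202 in dorsal E9 and 377 to 388 in dorsal E7. Of them 10 were lower in scale E9 than in feather skin (8.86% of all rows). Against dorsal E9 alone 11 were lower and 0 higher (12.6% and 9.23% of all rows). Against wing E9 alone 2 were lower and 0 higher (4.13% and 4.77% of all rows). The sums of wing and scale E9 overlapped, while ITGA9 averaged 42.6 ± 4.76 CPM in wing E9 and 17.1 ± 7.70 in scale E9. With age 11 markers were higher in dorsal skin and 4 in scale skin (12.2% and 4.37% of all rows). LMOD1 and 1 of the 2 rows of MYOCD were under 1 CPM in at least 6 libraries. Their part in the ITGA9 values was not tested.

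ITGA4, the other alpha chain of that kind and a receptor for VCAM1 and fibronectin, averaged 102.6 ± 6.68 CPM in scale E11, 152.0 ± 1.68 in scale E9, 72.8 ± 8.15 in wing E9, 300.7 ± 9.28 in thigh E9, 80.6 ± 13.9 in dorsal E9 and 92.7 ± 11.6 in dorsal E7. At E9 the libraries of both leg regions, scale and thigh, lay above all those of wing and back. The difference of scale E9 from the mean of the feather regions missed the threshold (0.33 ± 0.13, adjusted p 0.12).

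Of the collagen-binding alpha chains, ITGA11 (known from fibroblasts, paired with ITGB1; ENSGALT00000012997.4) had 88.4 and 70.4 CPM in scale E11, 82.8 and 76.3 in scale E9, 49.5 and 45.2 in wing E9, 16.0 and 7.53 in thigh E9, 24.9 and 24.1 in dorsal E9, and 76.7 and 64.6 in dorsal E7. Scale skin at both ages and dorsal E7 overlapped at the top, and the feather E9 libraries all lay lower. ITGA11 was higher in scale E9 than in feather skin (1.71 ± 0.21, adjusted p 8.6e-05) and fell with age in dorsal skin (-1.49 ± 0.26, adjusted p 0.0011), both in all alternatives tried. Against wing E9 alone ITGA11 was not called, nor was any other of the 4 collagen-binding rows. In scale skin ITGA11 did not change detectably with age (-0.01, 95% interval -0.56 to 0.54).

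ITGA1 has rows for ENSGALT00000024022.4 and ENSGALT00000035958.2, and how reads were divided between these transcripts is not given in the sources used here. The ENSGALT00000024022.4 row averaged 49.7 ± 1.99 CPM in dorsal E9 and 28.1 ± 0.47 in dorsal E7 and rose (0.80 ± 0.21, adjusted p 0.017), a call lost without any of the 4 libraries (adjusted p 0.064 to 0.11). The ENSGALT00000035958.2 row averaged 46.7 ± 4.70 CPM in dorsal E9 and 47.5 ± 4.17 in dorsal E7 and was not called. ITGA2 had group means of 2.56 to 6.36 CPM and was not called in a main comparison. ITGA1 and ITGA2 are assigned to chromosome Z in that annotation. The 473 rows assigned to Z were shifted by a median of 0.24 on the log2 scale in dorsal E9 against E7, and the 9491 rows of other chromosomes by 0.02, beside the W-linked genes missing from dorsal E9. Against dorsal E9 the Z rows were shifted by -0.23 in scale, -0.16 in thigh and -0.21 in wing E9. The rows of other chromosomes were shifted by -0.01, -0.03 and -0.02 there. The part of these shifts in the ITGA1 and ITGA2 values was not tested.

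ITGA6, the laminin-binding chain that pairs with ITGB4 in hemidesmosomes, averaged 36.6 ± 9.06 CPM in scale E11, 22.6 ± 0.59 in scale E9, 32.6 ± 0.98 in dorsal E9 and 19.6 ± 1.61 in dorsal E7. ITGA6 rose with age in dorsal skin (0.71 ± 0.20, adjusted p 0.023), a call lost without any of the 4 libraries (adjusted p 0.079 to 0.17), and missed the threshold in scale skin (0.65 ± 0.20, adjusted p 0.081). The RGD-binding chains ITGAV, ITGA8 and ITGA2B, named for the peptide motif of their ligands, gave no call in the main comparisons. ITGAV missed the threshold in scale E9 against feather skin (0.54 ± 0.18, adjusted p 0.058). ITGA8, a receptor for nephronectin, ranged from 209.6 to 336.4 CPM over all libraries, with a 95% interval of -0.32 to 0.23 in that comparison.

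ITGB3 (the beta chain of the vitronectin receptor and, with ITGA2B, of the thrombocyte fibrinogen receptor; ENSGALT00000000519.4) was called in 9 of the 10 pairwise and age comparisons, more than any other member. It had 43.1 and 35.3 CPM in scale E11, 19.6 and 15.7 in scale E9, 33.8 and 39.8 in wing E9, 63.4 and 41.6 in thigh E9, 121.7 and 118.8 in dorsal E9, and 19.1 and 20.9 in dorsal E7. Dorsal E9 lay above all others, while scale E9 and dorsal E7 overlapped below all others. ITGB3 was lower in scale E9 than in feather skin (-1.74 ± 0.17, adjusted p 1.4e-05), and it rose with age in dorsal skin (2.53 ± 0.21, adjusted p 2.4e-06) and in scale skin (1.11 ± 0.21, adjusted p 0.0066). The scale rise was lost without scale E9 replicate 2 (adjusted p 0.094) and without scale E11 replicate 1 (0.067). ITGAV, its partner chain, had 58.8 ± 6.01 CPM in dorsal E9 and 81.6 ± 10.8 in dorsal E7, a difference that was not called (-0.46 ± 0.22, adjusted p 0.17).

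ITGB4 (the hemidesmosome beta chain; ENSGALT00000003760.4) had 14.4 and 10.2 CPM in scale E11, 10.7 and 19.2 in scale E9, 5.08 and 7.13 in wing E9, 5.27 and 3.07 in thigh E9, 11.70 and 10.5 in dorsal E9, and 5.08 and 5.80 in dorsal E7. Scale E9 lay above wing and thigh and overlapped with the back. Thigh E9 had the lowest group mean of ITGB4, 4.17 CPM against 11.1 in dorsal E9. The keratinocyte marker sums went the other way, at 227 to 290 CPM in the thigh against 148 to 162 CPM in dorsal E9. Single markers were mixed: of 17 rows 1 was called higher and 0 lower in the thigh (13.5% and 16.5% of all rows). Some, such as KRT5 and PKP1, had a lower mean in the thigh. ITGB4 was higher in scale E9 than in feather skin (1.02 ± 0.24, adjusted p 0.010), a call lost without scale E9 replicate 2 (0.63, adjusted p 0.22), the library with the largest keratinocyte marker sum. It rose with age in dorsal skin (0.91 ± 0.30, adjusted p 0.046), where the keratinocyte markers summed to 148 to 162 CPM at E9 and 63.4 to 83.6 CPM at E7. That rise was lost with replicate number as a block (adjusted p 0.054) and in 5 of the 14 other alternatives (up to 0.23), and the part of epidermis in either difference was not tested.

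**Figure D5:**
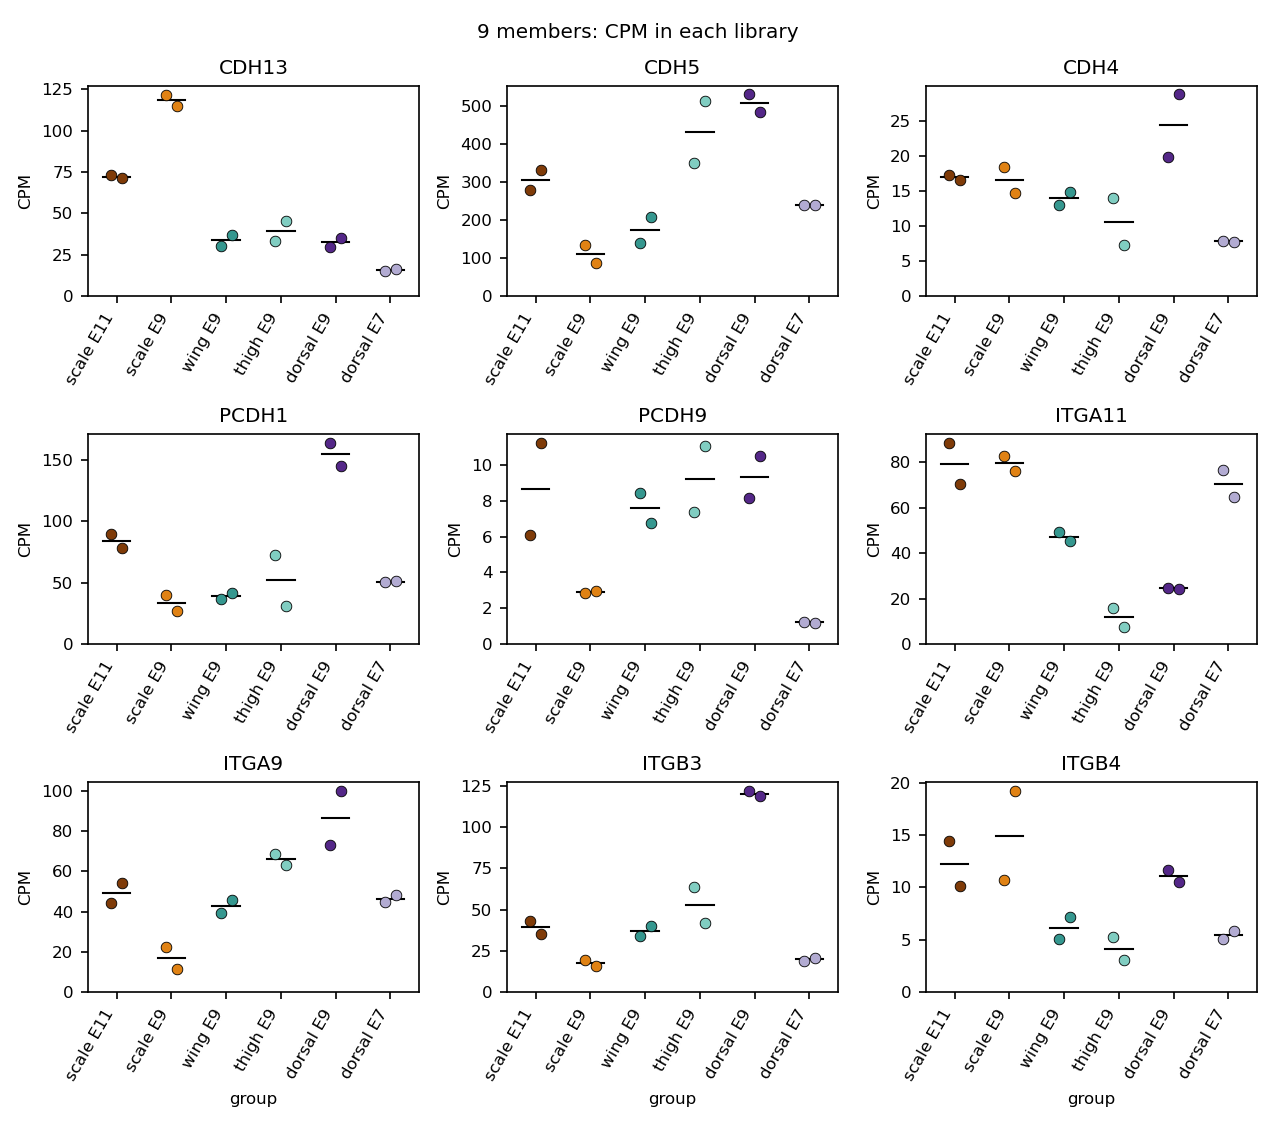
CPM in each library (points) with the group mean (line) for 9 members, the 3 called with the largest change in each main comparison among cadherins and protocadherins and among integrins; the vertical axes start at 0 and differ between panels. By group mean, CDH13 is highest in scale E9, CDH5, CDH4, PCDH1, PCDH9, ITGA9 and ITGB3 are highest in dorsal E9, and ITGA11 is lowest in thigh E9.

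ITGB5, another partner of ITGAV, averaged 342.1 ± 125.0 CPM in scale E11, 452.6 ± 30.9 in scale E9, 203.1 ± 21.6 in wing E9, 234.1 ± 71.4 in thigh E9, 305.1 ± 7.81 in dorsal E9 and 449.0 ± 17.6 in dorsal E7. It was higher in scale E9 than in feather skin (0.90 ± 0.20, adjusted p 0.0065), a call lost without either scale E9 library (adjusted p 0.086 and 0.054). ITGB8, which with ITGAV activates latent TGF-beta, averaged 37.6 ± 3.21 CPM in scale E9, against 33.6 ± 0.22 in wing, 19.0 ± 7.57 in thigh and 23.0 ± 1.21 in dorsal E9. Its difference from feather skin (0.61 ± 0.18, adjusted p 0.035) was lost in 8 of 22 alternatives (adjusted p up to 0.25).

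ITGB1, the common partner of most alpha chains, ranged from 743.8 to 1162 CPM and missed the test for any difference among groups (adjusted p 0.061), with no call in the main comparisons. Its group means were 786.2 CPM in scale E9, 747.7 in wing E9 and 1149 in dorsal E9, and of the other comparisons it was called in scale E9 against dorsal E9 (-0.55 ± 0.17, adjusted p 0.033) and wing E9 against dorsal E9 (-0.62 ± 0.17, adjusted p 0.020), lower than the back in both. The leukocyte chain ITGB2 ranged from 4.78 to 13.0 CPM with no call. Of the 11 measured leukocyte markers 0 were called in each main comparison by limma, edgeR or DESeq2. At an unadjusted p under 0.05 there was 1 in dorsal skin with age and 0 in the other main comparisons. Of all rows limma called 16.6% in scale E9 against feather skin, 20.1% in dorsal and 5.83% in scale skin with age. ITGB6, another TGF-beta-activating chain, had group means of 1.73 to 3.64 CPM with no call in the main comparisons.

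Set against each feather region in turn, scale E9 differed from dorsal E9 in 16 members (38.1%, against 21.8% of all rows), 4 higher and 12 lower, against 9.23% and 12.6% of all rows. It differed from thigh E9 in 19 members (45.2%, against 24.4%), 9 higher and 10 lower, against 11.7% and 12.7%. From wing E9 it differed in 8 members (19%, against 8.89%), 5 higher and 3 lower, against 4.77% and 4.13%, and fewer were called with any of the 4 libraries left out. CDH13 was higher than in all 3 regions, and ITGA9, ITGB3 and PCDH9 were lower than in all 3. These comparisons share the scale E9 libraries. Against the back the largest differences were in ITGB3 (-2.71 ± 0.21, adjusted p 1.1e-06), ITGA9 (-2.33 ± 0.25), CDH5 (-2.22 ± 0.24) and PCDH1 (-2.21 ± 0.30). Against the thigh they were in ITGA11 (2.74 ± 0.26, adjusted p 1.3e-05), CDH5 (-1.97 ± 0.24), ITGA9 (-1.96 ± 0.25) and ITGB4 (1.60 ± 0.30). Against the wing they were in CDH13 (1.80 ± 0.18, adjusted p 4.3e-05), ITGA9 (-1.34 ± 0.25), ITGB5 (1.16 ± 0.24) and PCDH9 (-1.13 ± 0.27). The PCDH9 difference from the wing was lost without any of the 4 libraries (adjusted p up to 0.18), and that of ITGB5 without wing E9 replicate 1 or scale E9 replicate 1 (0.094 and 0.078). The thigh comparison gave fewer calls without thigh E9 replicate 2 or scale E9 replicate 2, and more without thigh E9 replicate 1. Shares of all rows called with a library left out are not given, so these shifts are not read as particular to the members.

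Thigh and dorsal E9 differed in 16 members (38.1%, against 30% of all rows), 4 higher and 12 lower in the thigh, against 13.5% and 16.5% of all rows. ITGA4 (1.90 ± 0.16, adjusted p 5.1e-06) and PCDH8 (1.80 ± 0.31, adjusted p 0.00088) were higher in the thigh, and PCDH1 (-1.68 ± 0.30) and CDH20 (-1.32 ± 0.28) were lower. PCDH8, a delta-2 protocadherin related to the paraxial protocadherin of early mesoderm, averaged 2.10 ± 1.22 CPM in scale E11, 2.96 ± 0.13 in scale E9, 5.46 ± 0.13 in wing E9, 7.24 ± 3.34 in thigh E9, 1.28 ± 0.37 in dorsal E9 and 2.08 ± 0.35 in dorsal E7. Fewer members were called between thigh and back without thigh E9 replicate 2 or either dorsal E9 library, and more without thigh E9 replicate 1. The shares of all rows called in those fits are not given, so these shifts are not read as particular to the members.

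Wing and dorsal E9 differed in 18 members (42.9%, against 20.1% of all rows), 4 higher and 14 lower in the wing, against 7.62% and 12.5% of all rows. PCDH1 (-1.95 ± 0.30, adjusted p 0.00051), ITGB3 (-1.69 ± 0.21) and CDH5 (-1.57 ± 0.24) were lower in the wing and PCDH8 (1.51 ± 0.31, adjusted p 0.0036) was higher. Fewer members were called with any wing E9 or dorsal E9 library left out. Wing and thigh E9 differed in 11 members (26.2%, against 20.9% of all rows), 4 higher and 7 lower in the wing, against 9.25% and 11.6% of all rows, and the largest of these differences were in ITGA4 (-2.04 ± 0.16, adjusted p 4.4e-06), ITGA11 (2.01 ± 0.26), PCDH17 (1.67 ± 0.25) and CDH2 (1.41 ± 0.27). PCDH17 averaged 11.5 ± 0.95 CPM in wing E9, 3.05 ± 1.46 in thigh E9 and 6.02 ± 0.64 in dorsal E9, and it lies near PCDH8, with 2 coding genes between them. The CDH2 call was lost when only the wing and thigh libraries were fitted (adjusted p 0.069). Between wing and thigh fewer members were called without either wing E9 library, and more without either thigh E9 library. For neither comparison are shares of all rows given with a library left out, so these shifts are not read as particular to the members.

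The change with age in scale skin (E11 against E9) was set against that in dorsal skin (E9 against E7) as a difference of differences. It was called for 5 members (11.9%, against 4.98% of all rows), 2 with a positive and 3 with a negative difference, against 1.98% and 3.01% of all rows, and the ages of the intervals differ too. CDH18 rose in scale skin and fell in dorsal skin (difference 1.83 ± 0.38, adjusted p 0.014). ITGA11 fell in dorsal skin and was not called in scale skin (1.47 ± 0.36, adjusted p 0.034), and CDH4 rose in dorsal skin and was not called in scale skin (-1.47 ± 0.38, adjusted p 0.044). CDH13 fell in scale skin and rose in dorsal skin (-1.70 ± 0.26, adjusted p 0.0019), and ITGB3 rose more in dorsal than in scale skin (-1.42 ± 0.30, adjusted p 0.014). Of these, CDH13 kept its call in all 19 alternatives. CDH4 lost it in 8 (adjusted p up to 0.17), the replicate block among them (0.051), ITGA11 in 8 (up to 0.16), CDH18 in 5 (up to 0.068) and ITGB3 in 4 (up to 0.075). Fewer members were called with any library of these groups left out. Shares of all rows called in those fits are not given, so this drop is not read as particular to the members.

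Partners of the members were measured from lists of related genes. Of all rows 7.77% were higher and 8.86% lower in scale E9 than in feather skin. In dorsal E9 against E7 the shares were 12.2% and 7.96%, and in scale E11 against E9 they were 4.37% and 1.46%. The lists are short, and their counts are described only. Of 13 catenins and other cadherin partners 0 were called between scale E9 and feather skin in limma (2 at an unadjusted p under 0.05, 0 in edgeR and 1 in DESeq2), while 4 were higher and 1 lower in dorsal E9 than E7, with the largest changes in CTNND2 (2.25 ± 0.18), CTNNAL1 (1.73 ± 0.25) and CTNNA2 (1.36 ± 0.17). CTNNA2, the neural alpha-catenin, was the 1 partner that rose in scale skin with age (1.34 ± 0.17, adjusted p 0.00061). Of 6 desmosome genes 2 were higher in scale E9 than in feather skin, the plakophilin PKP2 (2.75 ± 0.18, adjusted p 7.1e-07) and the desmosomal cadherin DSG2 (1.23 ± 0.35, adjusted p 0.029). In edgeR 4 of the 6 were called and in DESeq2 3. Their sums in scale E9 replicates 1 and 2 were 103 and 214 CPM, beside keratinocyte marker sums of 258 and 642 CPM. PKP1 and DSP are on both lists, and the part of epidermis was not tested. Of 15 large and atypical cadherins 1 was higher and 2 were lower there, namely CLSTN2 (1.12 ± 0.24), FAT3 (-1.18 ± 0.20) and CDHR3 (-1.01 ± 0.19).

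Of 21 proteins of the integrin-linked adhesion complex 3 were higher and 3 lower in scale E9 than in feather skin (7.77% and 8.86% of all rows). The largest changes were in the talin TLN2 (-1.37 ± 0.13, adjusted p 1.2e-05), PARVG (-0.88 ± 0.16) and the kindlin FERMT1 (0.84 ± 0.20). Of 29 integrin ligands 7 were higher and 7 lower in that comparison. With age 13 were higher and 2 lower in dorsal skin (12.2% and 7.96% of all rows). In scale skin 6 were higher and 0 lower with age (4.37% and 1.46% of all rows). Tenascin-C (TNC), a ligand of ITGA9, averaged 196.2 CPM in scale E11, 41.4 in scale E9, 205.9 in wing E9, 19.97 in thigh E9, 480.2 in dorsal E9 and 28.5 in dorsal E7. It was lower in scale E9 than in feather skin (-1.57 ± 0.23, adjusted p 0.00041) and rose with age in dorsal (4.03 ± 0.29, adjusted p 6.8e-07) and scale skin (2.21 ± 0.29, adjusted p 0.00073). In the thigh the TNC mean stood lowest of the 6 groups, while that of ITGA9 was second only to dorsal E9. The thigh libraries had 27.87 and 12.06 CPM of TNC, so replicate 1 was level with dorsal E7, at 29.0 and 27.91 CPM. LAMB4 was higher (2.64 ± 0.34) and LAMA2 lower (-1.70 ± 0.19) in scale E9 than in feather skin.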

How the data were processed

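Total RNA of dissected tissue was made into TruSeq libraries, per the labels, and 12 libraries were measured. The deposited table holds CPM, a signal scaled by the authors to an effective library size; the tools TopHat2, HTSeq, Partek and edgeR and the build galGal4 are listed per the submitters' processing notes, without version or role. Values up to 100 CPM were multiples of the worth of 1 read, within 0.0055, in 100.0% of cases in each of the 12 columns, so reads could be recovered. A count of 0 allows up to 0.142 to 0.221 CPM (3 reads); this floor covers counting error alone, as reads are not counted by molecule. The table has 1300 rows with an identifier in place of a symbol and 317 that share a symbol.

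The filter asked for 1 CPM or more in 2 or more libraries and kept 12277 rows, removing 20. limma 3.58.1 in R 4.3.3 fitted 1 mean per group on log2(CPM + 1) with a mean-variance trend (6 residual and 6.95 prior degrees of freedom), tests were two-sided, and p-values were adjusted by Benjamini-Hochberg over all rows in each of 11 tests. The method was tested on simulated data, which cannot show whether the 2 libraries of a group are independent. Alternatives were no filter, a 5 CPM filter, pseudocounts of 0.5 and 2 CPM, quantile normalization, scaling by median of ratios, no trend, only the libraries compared, replicate number as a block, edgeR 4.0.16 and DESeq2 1.42.0 on recovered reads, each library left out, and each feather E9 group left out. Fits of all 6 groups without both dorsal E9 or both thigh E9 libraries were added after the data were seen.

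Named with a test were all members called in the main comparisons and in the change with age between skins, and the 4 with the largest change elsewhere; tests printed for other members (those that missed the threshold, and ITGB1) were chosen after their values were seen; values per library are given for the 3 called members with the largest change per main comparison in the cadherin and integrin families. The members, lists and tests were chosen with earlier results of these data known. Symbols were matched to RefSeq genes of assembly GRCg7b for 40 of 41, used for neighbours and chromosome only. Sequences were not used here.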

Additional observations from a re-analysis of the deposited data

Results flagged for a closer look

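For 5 members the change with age differed between scale skin (E11 against E9) and dorsal skin (E9 against E7), by a test of that difference in limma. The difference in log2 fold change was 1.825 for CDH18 and 1.473 for ITGA11, and it was -1.703 for CDH13, -1.469 for CDH4 and -1.422 for ITGB3. Under the alternatives CDH13 kept this call in all 19, while CDH4 and ITGA11 lost it in 8 each, CDH18 in 5 and ITGB3 in 4; the replicate block was 1 of the 8 for CDH4, at an adjusted p of 0.051. The change with age in scale skin was 1.01 for CDH18, -0.01 for ITGA11, -0.71 for CDH13, 0.04 for CDH4 and 1.11 for ITGB3. In dorsal skin it was -0.81 for CDH18, -1.49 for ITGA11, 0.998 for CDH13, 1.51 for CDH4 and 2.53 for ITGB3. The dorsal E9 libraries were the ones without W-linked transcripts, and the part of that in these differences was not tested. No group has more than 2 libraries, so no library could be tested as an outlier.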

How the results depend on the processing

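The 68 named results of 24 members gave 1127 values under the alternatives: 991 kept their call, 136 lost it and 0 reversed, and 34 results kept it throughout. With a library left out, the members called ranged from 6 to 23 in scale E9 against feather skin (13 with all libraries), 7 to 9 in dorsal E9 against E7 (16), 1 to 7 in scale E11 against E9 (10), 13 to 14 in scale E9 against dorsal E9 (16), 10 to 23 against thigh E9 (19) and 4 to 5 against wing E9 (8). They ranged from 8 to 23 in thigh against dorsal E9 (16), 9 to 13 in wing against dorsal E9 (18), 5 to 15 in wing against thigh E9 (11), 1 to 4 in the difference between the changes with age (5) and 26 to 35 among all groups (31). A group left with 1 library is there assumed to vary like the others. Shares of all rows called with a library left out are not given, so these ranges are not read as particular to the members. With only the libraries compared, the counts were 10 for scale E9 against thigh E9, 7 for thigh against dorsal E9 and 4 for wing against thigh E9. The other pairwise counts there were 11 for scale E9 against feather skin, 22 for dorsal E9 against E7 (14 higher, 8 lower), 12 for scale E11 against E9 (8 higher, 4 lower), 19 for scale E9 against dorsal E9, 11 against wing E9 and 24 for wing against dorsal E9. Over all rows that setting called 4483 in dorsal E9 against E7 (2471 with all libraries), 4221 in wing against dorsal E9 (2469), 1262 in scale E9 against thigh E9 (2995), 1481 in thigh against dorsal E9 (3681) and 908 in wing against thigh E9 (2561). For the other comparisons all-row counts under that setting are not given, so their member counts cannot be set against the whole table.

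Nothing says that replicate numbers pair libraries across groups, and replicate differences correlated at -0.10 to 0.23 between groups, over 0.1 in 5 of 15 pairs of groups. With the replicate block the main counts were 13, 16 and 12, and 2 named calls were lost, ITGB4 in dorsal skin with age and CDH4 in the difference between the changes with age (adjusted p 0.054 and 0.051). With 2 libraries per group, small changes of members near 1 CPM are not detectable at this depth.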
